A study of Mus musculus with 9 samples.

Results

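Genes of the splicing machinery and of the hnRNP proteins were followed in mouse embryos that carried targeted alleles of the Notch receptor gene Notch1 or the Notch ligand gene Dll3. Members were all probe sets annotated to exactly 1 gene symbol that begins with Hnrnp, Snrp or a numbered Srsf, Sf3a, Sf3b or Prpf name. The rule used names and no measured value, and found 138 of 22690 probe sets, which stand for 54 of the 12393 genes named by a single symbol. By role they are 18 hnRNP genes (50 probe sets), 9 SR protein genes (28), 9 genes of the SF3A and SF3B complexes (22), 8 Snrp genes (15) and 10 Prpf genes (23). A further 14 probe sets matched the names but carried several symbols and were not counted as members.

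Before an exon can be joined to the next, the spliceosome assembles on the transcript from small nuclear RNAs packed with proteins, called snRNPs. The U1 snRNP marks the start of an intron, the U2 snRNP with its SF3A and SF3B subcomplexes marks the branch point, and the tri-snRNP, which holds several Prpf proteins, brings the catalytic RNAs. SR proteins and hnRNP proteins bind the transcript itself and, often in opposition, steer which exons are kept; many of their own genes make alternative transcripts, so that probe sets of 1 gene can report different forms.

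RNA of whole embryos at 9.5 days post coitum was labelled on 9 Affymetrix arrays. Per the labels, 2 arrays were homozygous for Notch1tm1Con (called Notch1 null here), 1 was Notch1tm1Con/+ (Notch1 het), 2 were +/+ (wild type), 2 were Dll3neo/+ (Dll3 het) and 2 were Dll3neo/neo (Dll3 null). The C57BL/6J background is named for the first Notch1 null array only. The labels do not say whether replicates were single embryos, pools or separate litters, and every p-value here therefore reflects array-to-array spread alone, part of which may be technical. In whole embryos, fewer cells of a type and less RNA per cell cannot be told apart.

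Values are linear ratios, each probe set apparently divided by 1 number of its own, so only differences between arrays can be read and no level or detection of a gene or tissue marker. Gene values are geometric means of the probe sets of a gene, and differences are on the log2 scale with their standard error (SE). Probe sets of the bacterial dap control averaged 6.61 and 9.20 on wild-type arrays, 5.26 and 2.62 on Notch1 null arrays, 1.00 on the Notch1 het array and 0.360 to 0.403 on Dll3 arrays. The control thus did not overlap between wild type and any other genotype, and genotype and preparation cannot be told apart between them. The control also did not overlap between Notch1 null, Notch1 het and the Dll3 arrays, with the same limit. Its part in any result here was not tested.

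The promoters of 4 Snrp genes and Srsf2 are shown because these genes fell in Notch1 null embryos (values below) and differ in the motifs they hold. Sequences come from RefSeq (GRCm38.p6), run 5′ to 3′ on the strand of the gene and span 250 bases before to 50 bases after its annotated start. Capitals mark CCGGAAG, the core of sites bound by ETS factors, or TATAAA, the TATA box, on either strand. Snrpc lies on the plus strand (chr17:27839837-27840136), Snrpe on the minus strand (chr1:133610231-133610530), Snrpg on the plus strand (chr6:86371290-86371589), Snrpa1 on the plus strand (chr7:66060086-66060385) and Srsf2 on the minus strand (chr11:116853045-116853344).
Snrpc: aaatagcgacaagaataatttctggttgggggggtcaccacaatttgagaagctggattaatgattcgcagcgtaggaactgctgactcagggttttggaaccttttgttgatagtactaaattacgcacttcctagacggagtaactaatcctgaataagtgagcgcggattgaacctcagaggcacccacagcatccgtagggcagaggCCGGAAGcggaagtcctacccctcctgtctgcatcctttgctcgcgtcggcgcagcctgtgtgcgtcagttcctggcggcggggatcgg
Snrpe: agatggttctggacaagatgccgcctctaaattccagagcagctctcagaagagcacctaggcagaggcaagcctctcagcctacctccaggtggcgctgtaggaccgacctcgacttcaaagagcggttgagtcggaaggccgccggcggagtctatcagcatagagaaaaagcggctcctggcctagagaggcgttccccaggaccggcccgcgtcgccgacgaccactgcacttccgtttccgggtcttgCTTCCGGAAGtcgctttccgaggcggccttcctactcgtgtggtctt
Snrpg: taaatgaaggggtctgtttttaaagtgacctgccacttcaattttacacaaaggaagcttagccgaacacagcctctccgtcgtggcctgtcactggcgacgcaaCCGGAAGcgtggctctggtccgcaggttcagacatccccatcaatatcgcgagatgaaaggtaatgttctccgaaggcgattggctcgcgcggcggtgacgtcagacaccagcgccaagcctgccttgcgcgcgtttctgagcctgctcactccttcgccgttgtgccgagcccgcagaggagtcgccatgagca
Snrpa1: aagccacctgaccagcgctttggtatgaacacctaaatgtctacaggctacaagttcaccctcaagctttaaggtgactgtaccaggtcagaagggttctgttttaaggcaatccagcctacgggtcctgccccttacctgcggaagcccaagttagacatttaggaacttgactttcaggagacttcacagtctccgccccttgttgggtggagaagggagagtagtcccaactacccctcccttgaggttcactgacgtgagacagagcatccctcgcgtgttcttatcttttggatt
Srsf2: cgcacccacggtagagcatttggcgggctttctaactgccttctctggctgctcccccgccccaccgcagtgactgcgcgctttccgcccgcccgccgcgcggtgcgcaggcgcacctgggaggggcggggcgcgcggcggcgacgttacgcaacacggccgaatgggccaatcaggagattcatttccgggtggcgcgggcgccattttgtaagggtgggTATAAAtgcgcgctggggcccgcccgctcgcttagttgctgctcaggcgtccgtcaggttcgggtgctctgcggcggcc
In Snrpc the CCGGAAG match began 39 bases before the start and in Snrpg 145 bases before it. In Snrpe an overlapping pair of matches on opposite strands lay just after the start. Snrpa1 held neither motif, and Srsf2 held TATAAA 29 bases before its start.

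Windows were given for 49 of the 54 genes (68 windows); Hnrnpll, Hnrnpul2, Sf3b4, Sf3b5 and Snrpb had no entry. CCGGAAG was found in 35.3% of member windows and in 8.86% of all 32851 windows. It was present for 6 of 7 SF3 genes, 4 of 7 Snrp genes (Snrpb2, Snrpc, Snrpe and Snrpg), 4 of 10 Prpf genes, 3 of 9 SR genes and 2 of 16 hnRNP genes. GGGCGG, the GC box, was found in 63.2% of member windows against 35.7% of all, and in 8 of 9 SR genes. TATAAA was rarer among members (8.82% against 13.6%), with Srsf2, Srsf3, Hnrnpab, Hnrnpm, Sf3b3 and Snrpn holding it. ACGTG, the core of the hypoxia response element, was found in 36.8% against 19.6%. Both strands were searched for each, overlaps between motifs were allowed, and a match describes the letters in the window only.

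Loss of the receptor was addressed by setting Notch1 null beside wild type. Snrp genes, which encode snRNP proteins, were lower: 5 of 8 fell, 0 rose, and all 8 had a difference below zero. Hnrnpl, an hnRNP that binds CA-rich stretches, and Srsf2, an SR protein that promotes exon inclusion, fell with them, as did Prpf3 of the tri-snRNP. A single member rose, Prpf40b, a relative of a yeast U1 snRNP factor. Of all 54 genes, 8 fell, 1 rose and 45 did not pass limma at a Benjamini-Hochberg adjusted p under 0.05.

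The share called was 16.7% of members, against 12.1% of all genes (8.35% lower and 3.76% higher), so the count alone stands only slightly above the background. The median member difference was -0.19, against -0.03 over all genes, and 75.9% of members were below zero against 57.5% of genes. By role the median was -0.37 for Snrp, -0.26 for SF3, -0.21 for SR, -0.06 for hnRNP and 0.01 for Prpf genes. The Snrp genes thus lay lowest, with 62.5% called lower against the 8.35% of all genes, and the hnRNP genes as a group lay near the median of all genes. The calls rest on few arrays: the count of 9 became 0 without wild_type replicate 2, 1 when wild_type replicate 1 or Notch1_null replicate 2 was left out and 5 without Notch1_null replicate 1, and it was 1 after quantile normalization and 5 after median centring. The Snrp count of 5 became 0 when Notch1_null replicate 2 or wild_type replicate 2 was left out, 1 without wild_type replicate 1, 2 without Notch1_null replicate 1, 3 without any 1 of the Dll3 arrays, 2 after median centring and 0 after quantile normalization.

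**Figure D1:**
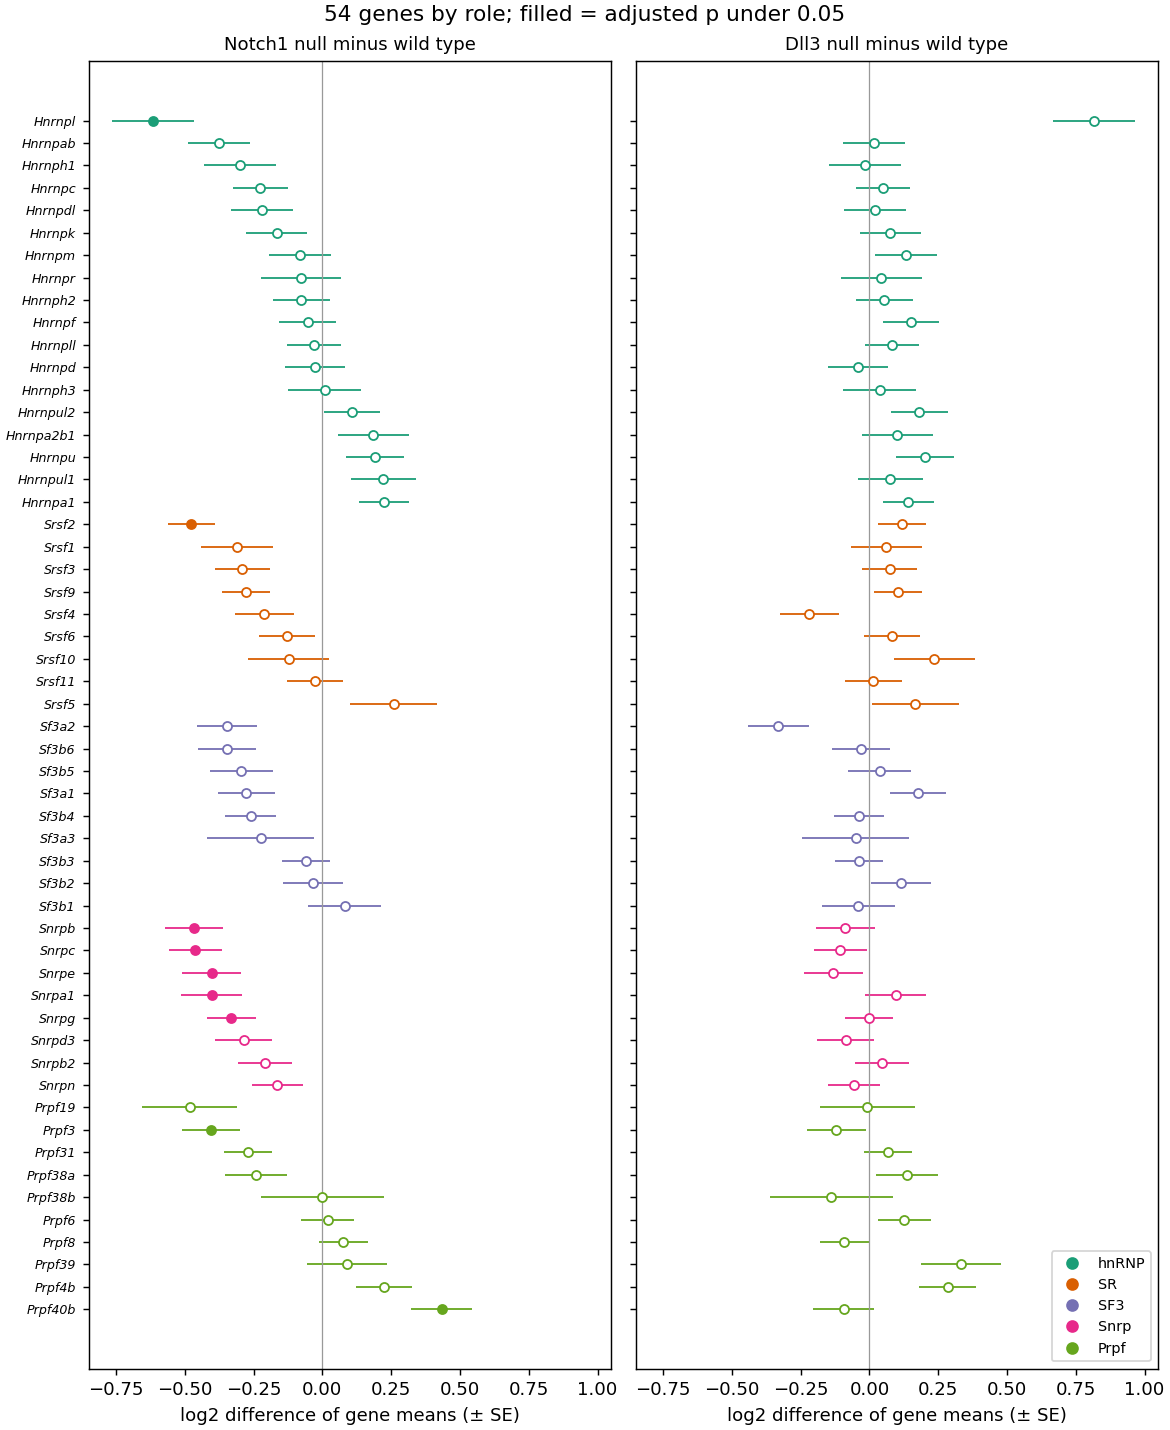
Log2 difference of gene means (x axis, with SE bars) for each of the 54 genes (y axis), coloured by role, in Notch1 null (left) and Dll3 null (right) against the same wild-type arrays; filled points passed limma at an adjusted p under 0.05. All 8 Snrp genes lie left of zero in Notch1 null, and Hnrnpl lies at -0.62 on the left and 0.82, not passing, on the right.

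Snrpb, which encodes the SmB protein of the ring that clasps snRNAs, had ratios of 0.790 and 0.678 in Notch1 null, 1.02 in Notch1 het, 1.00 and 1.02 in wild type, 0.987 and 1.00 in Dll3 het and 1.01 and 0.896 in Dll3 null. Both Notch1 null arrays lay below all 7 others, and the difference from wild type was -0.47 ± 0.11 SE (adjusted p = 0.0212). Snrpa1, the U2 A′ protein, had 0.836 and 0.710 in Notch1 null, 1.04 in Notch1 het, 1.09 and 0.952 in wild type, 1.08 and 1.02 in Dll3 het and 1.09 and 1.08 in Dll3 null. Here too the Notch1 null arrays were the lowest, with a difference of -0.40 ± 0.11 (adjusted p = 0.0444).

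Snrpc, the U1-C protein that helps U1 read the start of an intron, had 0.789 and 0.794 in Notch1 null but also 0.763 in Notch1 het, against 1.03 and 1.15 in wild type, 1.08 and 0.995 in Dll3 het and 1.03 and 1.00 in Dll3 null. All 3 arrays with a Notch1 allele lay below the other 6. The difference was -0.46 ± 0.10 (adjusted p = 0.0153) in Notch1 null and -0.52 ± 0.12 (adjusted p = 0.0568) in Notch1 het, where it missed the threshold. Snrpe, the SmE protein, had 0.925 and 0.808 in Notch1 null, 0.814 in Notch1 het and 1.12 and 1.17 in wild type, with 0.991 to 1.11 in the Dll3 arrays. It too was lowest in the Notch1 arrays, by -0.40 ± 0.11 in Notch1 null (adjusted p = 0.0387) and -0.49 ± 0.13 in Notch1 het (adjusted p = 0.083).

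Snrpg, the SmG protein, differed by -0.33 ± 0.09 (adjusted p = 0.0391) and had 0.850 and 0.816 in Notch1 null against 1.02 and 1.08 in wild type, with the Notch1 het array between at 0.929. The other Snrp genes did not pass: Snrpd3 (SmD3) had -0.29 ± 0.10, Snrpb2 (the U2 B″ protein) -0.21 ± 0.10 and Snrpn -0.16 ± 0.09. Snrpb and Snrpn encode near-identical proteins, so probe sets of the pair could share signal; their differences were -0.47 and -0.16. Probe sets named for both Snurf and Snrpn were not members. Unlike the member set of Snrpn they lay above zero in Notch1 null, at 0.12, 0.06, 0.04 and 0.02, none passing.

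**Figure D2:**
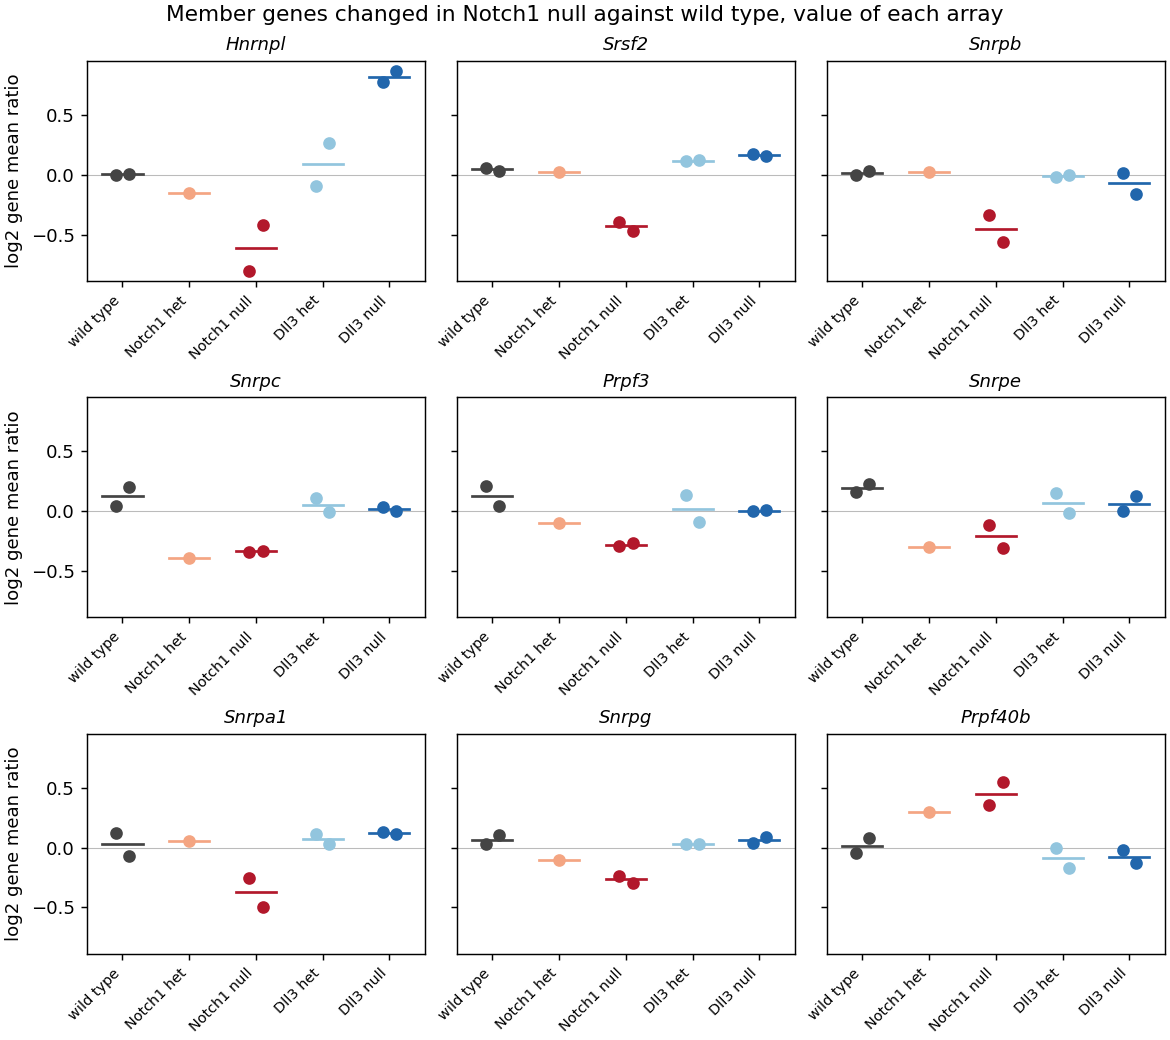
Log2 gene mean ratio (y axis) of the 9 genes that passed in Notch1 null against wild type, with 1 point per array, bars at group means and the groups on the x axis. The Notch1 null arrays lie below all others for Hnrnpl, Srsf2, Snrpb, Snrpa1, Snrpg and Prpf3, while Notch1 het lies as low as Notch1 null for Snrpc and Snrpe.

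Among genes of transcript-bound regulators, Srsf2 had the lowest adjusted p of all members in this comparison. Its ratios were 0.760 and 0.723 in Notch1 null, 1.02 in Notch1 het, 1.04 and 1.02 in wild type, 1.08 and 1.09 in Dll3 het and 1.13 and 1.11 in Dll3 null. The Notch1 null arrays stood alone at the low end, by -0.48 ± 0.09 (1.39-fold lower, adjusted p = 0.00883). The call ended without Notch1_null replicate 2, wild_type replicate 1 or wild_type replicate 2, with an adjusted p up to 0.0708. The other SR genes did not pass as gene means, although 8 of 9 were below zero; Srsf1, a general splicing activator, had -0.31 ± 0.13, Srsf9 -0.28 ± 0.09 and Srsf5 0.26 ± 0.16.

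Hnrnpl, measured by 1 probe set, differed most between genotypes. Its ratios were 0.573 and 0.748 in Notch1 null, 0.901 in Notch1 het, 1.00 and 1.01 in wild type, 0.939 and 1.20 in Dll3 het and 1.71 and 1.82 in Dll3 null. Notch1 null held the 2 lowest values and Dll3 null the 2 highest of the 9 arrays, with no overlap with any other group. Against wild type the difference was -0.62 ± 0.15 (1.53-fold lower, adjusted p = 0.0258) in Notch1 null and 0.82 ± 0.15 (adjusted p = 0.112) in Dll3 null, which did not pass. The Notch1 null call ended without Notch1_null replicate 1, wild_type replicate 1 or wild_type replicate 2 and after quantile normalization (adjusted p up to 0.154).

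Both nulls were then compared directly, a comparison added after the data were seen. Their dap values did not overlap, so genotype and preparation cannot be told apart here either. Hnrnpl was lower in Notch1 null than in Dll3 null by -1.43 ± 0.15 (adjusted p = 0.00145), and this call held under all 19 alternatives tried, with differences from -1.67 to -1.24 and adjusted p up to 0.0288; fitted among probe sets it ended in 1 of 16, at an adjusted p of 0.0562. It was the only one of 18 gene calls over all comparisons that no alternative ended. In all, 6 members were lower and 1 higher in Notch1 null than in Dll3 null (13.0%, against 7.79% of all genes, 4.87% lower and 2.92% higher): beside Hnrnpl, Srsf2 (-0.59 ± 0.09), Snrpa1 (-0.50 ± 0.11), Sf3a1 (-0.45 ± 0.10), Srsf9 (-0.38 ± 0.09) and Prpf31 (-0.34 ± 0.09) were lower and Prpf40b (0.53 ± 0.11) higher. The count was 1 without Notch1_null replicate 2, 1 without Dll3_null replicate 1, 2 without Dll3_null replicate 2, 3 after quantile normalization and 2 with only these arrays fitted. The median member difference was -0.21, against -0.04 over all genes, and by probe sets 3 were higher and 16 lower (13.8%, against 5.74% of all, 2.46% higher and 3.27% lower). That count of 19 was 6 without Notch1_null replicate 1 or Dll3_null replicate 2, 1 without Notch1_null replicate 2, 5 without Dll3_null replicate 1 and 9 or 10 without any 1 of the other replicated arrays.

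The remaining hnRNP genes did not pass as gene means in Notch1 null. Hnrnpab, which binds single-stranded nucleic acid, had -0.38 ± 0.11 (adjusted p = 0.059), Hnrnph1 -0.30 ± 0.13 and Hnrnpa1, an antagonist of SR proteins, 0.22 ± 0.09. The highest hnRNP differences, of Hnrnpa1, Hnrnpul1, Hnrnpu and Hnrnpa2b1, lay between 0.19 and 0.22. Probe sets named for Hnrnpa1 together with other symbols were not members and had -0.18, -0.06 and 0.04, none passing.

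No SF3 gene passed as a gene mean in Notch1 null against wild type, although 8 of 9 were below zero. Unadjusted, 5 of the 9 had a limma p under 0.05, beside 3208 of all 12393 genes. Sf3b6, the subunit that lies on the branch point adenosine, had -0.35 ± 0.10 (adjusted p = 0.0608), and Sf3b5 had -0.30 ± 0.11. Each includes 1 dim probe set whose ratios never reached 1; with such sets left out Sf3b6 passed at -0.45 and Sf3b5 at -0.46. Sf3b1, the largest of the SF3B subunits and a contact of the branch point, had 0.08 ± 0.13. Genes of the same complex thus did not all lie on the same side.

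Of Prpf genes, Prpf3 fell, with ratios of 0.815 and 0.832 in Notch1 null, 0.936 in Notch1 het and 1.16 and 1.03 in wild type (-0.40 ± 0.11, adjusted p = 0.0363). Prpf40b was highest in the Notch1 arrays, at 1.28 and 1.46 for the null and 1.23 for the heterozygote, against 0.968 and 1.06 in wild type and 0.887 to 1.00 in the Dll3 arrays. Its difference was 0.43 ± 0.11 in Notch1 null (adjusted p = 0.0327) and 0.28 ± 0.14 in Notch1 het, which did not pass; among probe sets its adjusted p in Notch1 null was 0.0527. Both gene calls ended when any 1 of the Notch1 null or wild-type arrays was left out, and that of Prpf3 also without either Dll3 null array. Prpf19, the ubiquitin ligase at the centre of the Prp19 complex, had the lowest Prpf difference, -0.48 ± 0.17, but its Notch1 null arrays lay far apart at 0.890 and 0.607 and it did not pass (adjusted p = 0.106). Prpf8, the core protein beside the catalytic RNAs, had 0.08 ± 0.09.

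**Figure D3:**
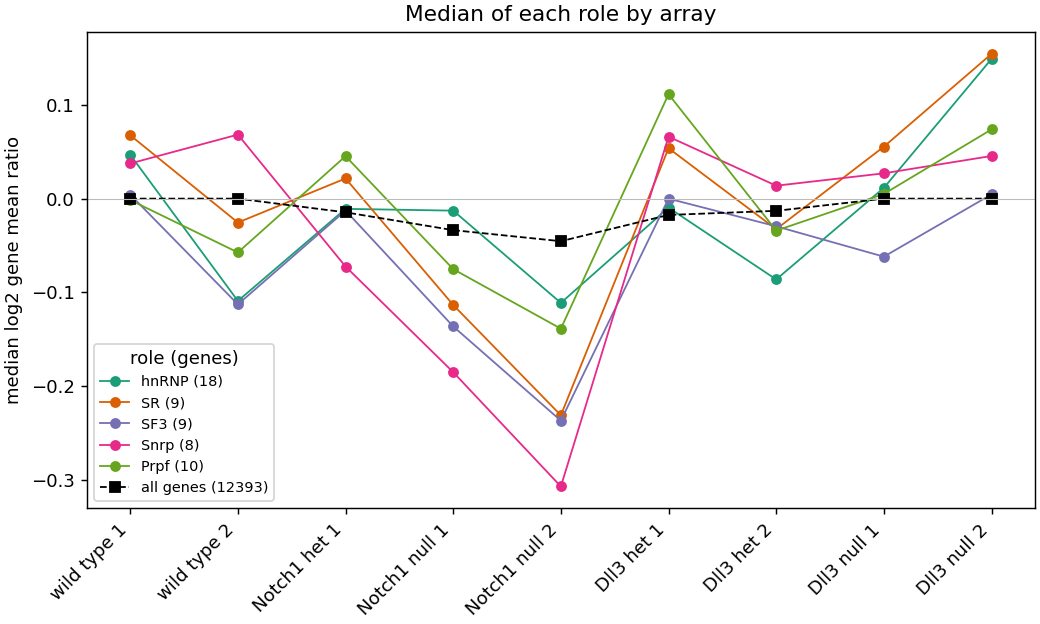
Median log2 gene mean ratio (y axis) of each role and of all genes in each of the 9 arrays (x axis); lines only join the points of a role. Snrp medians are lowest in the Notch1 null arrays, at -0.19 and -0.31, while the median of all genes stays between -0.05 and 0.00.

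Array by array, the Snrp median was -0.19 and -0.31 for Notch1 null and -0.07 for Notch1 het, against 0.01 to 0.07 in the 6 other arrays. Notch1_null replicate 2 was the lowest of the 9 arrays for 24 of the 54 genes and for 7 of the 8 Snrp genes. Over all 12393 genes it was the lowest for 2178. Dll3_null replicate 2 was the highest for 16 of the 54, and for 997 of all genes. The median difference of -0.19 was -0.12 without Notch1_null replicate 2 and -0.11 without wild_type replicate 1, so its size rests on an array of each group.

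Some markers of cell types and of low oxygen also differed between Notch1 null and wild type, where 12.1% of all genes were called. Of 17 genes of early neurons 13 were lower and 0 higher. Their mean by array was -0.48 and -0.39 in Notch1 null, -0.34 in Notch1 het, 0.37 and 0.24 in wild type and -0.05 to 0.14 in the Dll3 arrays. Of 22 genes of low oxygen and glycolysis 18 were higher and 0 lower (means of 0.98 and 1.25 in Notch1 null and -0.18 to -0.02 elsewhere). Neural progenitor genes had 5 lower and 1 higher of 14, cardiac muscle 3 higher of 16 and endothelium 4 higher of 13. Primitive red cells had 1 higher of 11 (9.09%) and endoderm 1 lower of 12 (8.33%), both below the share of all genes. The endoderm means lay apart between replicates, at 0.25 and -0.60 in Notch1 null and -0.23 and 0.57 in wild type. The part of these markers in the member differences was not tested.

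Other genes of the splicing machinery, 141 measured of 173 listed, had 22 lower and 6 higher in Notch1 null, together 19.9% against the 12.1% of all genes, with a median of -0.11. The lower ones lay mostly with the snRNPs and the catalytic core. Of 11 LSm genes 4 fell, led by Lsm2 of the ring on U6 snRNA (-0.79 ± 0.12, adjusted p = 0.00403) and Lsm1 of the cytoplasmic decapping ring (-0.64 ± 0.12). Of 13 other snRNP genes 4 fell and 1 rose; Phf5a, an SF3B subunit named outside the rule, had -0.58 ± 0.12 and Snrnp40 of U5 -0.57 ± 0.11. Of 18 genes of the Prp19 complex and catalytic steps 6 fell and 0 rose, among them Bud31 (-0.46 ± 0.09) and Cwc15 (-0.46 ± 0.10). Against wild type the LSm median was -0.28 in Notch1 null and -0.30 in Notch1 het. It was -0.32 and -0.16 for the other snRNP genes, and -0.28 and -0.10 for the Prp19 and catalytic list.

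Other groups gave fewer or mixed calls. Of 26 SR-related genes 2 rose and 0 fell: Clk1, a kinase of SR proteins, had 0.65 ± 0.13 (adjusted p = 0.0144) and Sfswap 0.69 ± 0.15. Of 27 tissue regulators 3 rose and 5 fell, with Tia1, which binds U-rich stretches, at 0.59 ± 0.10 and Elavl4, a neuronal RNA-binding protein that is also on the early neuron list, at -0.83 ± 0.12. Of 20 hnRNP proteins under other names 1 fell, Pcbp4 (-0.60 ± 0.09), of 12 branch point and 3′ splice site factors 1 fell, Puf60 (-0.44 ± 0.11), and of 3 exon junction genes 1 fell, Rbm8a (-0.54 ± 0.10). None of 11 helicase genes passed limma; Dhx15 (-0.25 ± 0.10) and Ddx39b (-0.20 ± 0.09) had the lowest p there.

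In Notch1 het, a single array, 0 of 54 member genes passed limma against wild type, beside 2.25% of all genes (0.718% higher and 1.53% lower). Unadjusted, 9 members had a limma p under 0.05, beside 2322 of all 12393 genes. The count was 1 with the median of probe sets and 5 with the probe set of largest SD for each gene. The median member difference was -0.03, and 0.042 without wild_type replicate 1. By probe sets 2 were higher and 3 lower (3.62%, against 2.76% of all, 0.99% higher and 1.77% lower). Hnrnpab had the widest of these, at 1426114_at: 0.325 in Notch1 het against 1.36 and 2.44 on the wild-type arrays, 1.24 and 0.793 for Notch1 null, 0.672 and 0.774 in Dll3 het and 1.96 and 1.00 in Dll3 null (-2.49 ± 0.43, adjusted p = 0.0244). The Notch1 het value was the lowest of the 9 arrays, the wild-type pair were themselves apart, and no other Hnrnpab probe set passed. The other probe sets called were 1417055_at of Sf3b6 (-0.88 ± 0.17), 1451185_at of Sf3b5 (-0.66 ± 0.15), 1425497_a_at of Prpf4b, a kinase of the tri-snRNP (0.76 ± 0.15), and 1434391_at of Hnrnpu (0.67 ± 0.15). The count was 0 when wild_type replicate 1 or wild_type replicate 2 was left out, and 1 without either Notch1 null or either Dll3 het array.

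Notch1 null was also compared with that single heterozygous array. Its dap value lay below both Notch1 null arrays, so genotype and preparation cannot be told apart. Both SF3A genes that passed were lower in Notch1 null: Sf3a1, with 0.753 and 0.758 against 1.18 in Notch1 het (-0.65 ± 0.13, adjusted p = 0.033), and Sf3a2, with 0.971 and 0.980 against 1.63 (-0.74 ± 0.14, adjusted p = 0.0257). The Notch1 het array was the highest of all 9 for both genes. These were 2 of 54 genes (3.70%), near the 2.45% of all genes (1.13% higher and 1.32% lower). The probe sets passing were also 2, 1.45% against 1.78% of all (0.853% higher and 0.928% lower): 1419087_s_at of Sf3a1 and 1450576_a_at of Sf3a2. The gene count was 0 without either Notch1 null array, 1 without either Dll3 null array and 0 after quantile normalization. The probe set count was 0 without any 1 of the Notch1 null, wild-type or Dll3 het arrays and 1 without either Dll3 null array.

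Loss of the ligand was addressed by setting both Dll3 genotypes beside wild type and beside each other; the wild-type arrays are those used above. In Dll3 null 0 of 54 genes and 0 of 138 probe sets passed limma. The shares of all were 0.00807% of genes (0% higher) and 0.0884% of probe sets (0.0177% higher and 0.0707% lower). Unadjusted, 4 member genes and 19 probe sets had a limma p under 0.05. Of all 12393 genes 1157 did, and of all 22626 probe sets 2307. The median member difference was 0.05, and 0.13 without wild_type replicate 1. Hnrnpl had the lowest p (above), followed in size by Prpf39 at 0.33 ± 0.15 and Prpf4b at 0.28 ± 0.10, while Sf3a2 had -0.33 ± 0.11, Srsf4 -0.22 ± 0.11 and Prpf38b -0.14 ± 0.22. None of these passed. In Dll3 het 0 genes and 0 probe sets passed. The shares of all were 0.113% of genes (0.0242% higher and 0.0888% lower) and 0.486% of probe sets (0.186% higher and 0.301% lower). Unadjusted, 8 member genes and 30 probe sets had a limma p under 0.05 in Dll3 het, beside 1800 of all genes and 3623 of all probe sets. The lowest p of a probe set there was that of 1460547_a_at of Hnrnpk, a protein of C-rich stretches, with 0.805 and 0.712 against 1.20 and 1.14 in wild type. Both values lay below every other array, and the adjusted p was 0.0663. The Dll3 het probe set count was 1 without either Dll3 null array.

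Between Dll3 null and Dll3 het, whose dap values were alike, 0 member genes and 0 probe sets passed limma, and 0% of all genes did. Unadjusted, 4 member genes and 8 probe sets had a limma p under 0.05. Of all 12393 genes 654 did, and of all 22626 probe sets 1201. Hnrnpl had a difference of 0.73 ± 0.15 (adjusted p = 0.842), and hnRNP genes had a median of 0.15, against 0.01 over all genes. By array the hnRNP median was 0.01 and 0.15 in Dll3 null and -0.01 and -0.09 in Dll3 het, so that Dll3_null replicate 2 stood highest. With few calls among all genes in these comparisons, a member that did not pass is not shown to be unaltered. Whether the step from heterozygote to null differed between the Notch1 and Dll3 alleles was tested directly by limma, and no member passed. Hnrnpl came nearest (-1.19 ± 0.23 between the steps, adjusted p = 0.075). The share of all genes passing this test was not counted, so the lack of member calls cannot be set beside a background.

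How far probe sets of a gene agreed was examined for the 36 genes with more than 1. Their pairwise correlation over the 9 arrays, a description only since sets share arrays and sometimes sequence, had a median of 0.37 per gene, against 0.22 over all 4956 such genes, and was above 0.5 in 38.9% of members against 24.3% of all. In Notch1 null against wild type the probe sets of 19 of 36 genes all lay on the same side of zero (52.8%, against 57.0% of all genes). The median range between the highest and lowest set of a gene was 0.33, against 0.23 over all. Members more often have 3 or more sets; among such genes the median range was 0.37 against 0.33, and among genes with 2 sets 0.19 against 0.17. All sets lay on the same side in 43.5% of members against 42.0% of all genes with 3 or more sets, and in 69.2% against 66.3% with 2 sets, so the lower share over all 36 genes is not seen at a like number of sets.

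Taken singly, 17 probe sets fell and 3 rose in Notch1 null (14.5%, against 9.45% of all, 5.99% lower and 3.46% higher). In none of the 36 genes did every probe set pass, and in none did sets pass in both directions. The count of 20 became 5 without Notch1_null replicate 1, 2 without any 1 of Notch1_null replicate 2, wild_type replicate 1 or wild_type replicate 2, 5 after quantile normalization and 10 with only these groups fitted. Snrpa1 had the tightest sets of genes with at least 3, at -0.36, -0.40 and -0.45, none passing singly, although their mean did. Hnrnpk (range 0.13) and Srsf10 (0.15) followed. In Srsf2, 3 of 4 sets passed (-0.61, -0.57 and -0.49) and the other had -0.24.

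**Figure D4:**
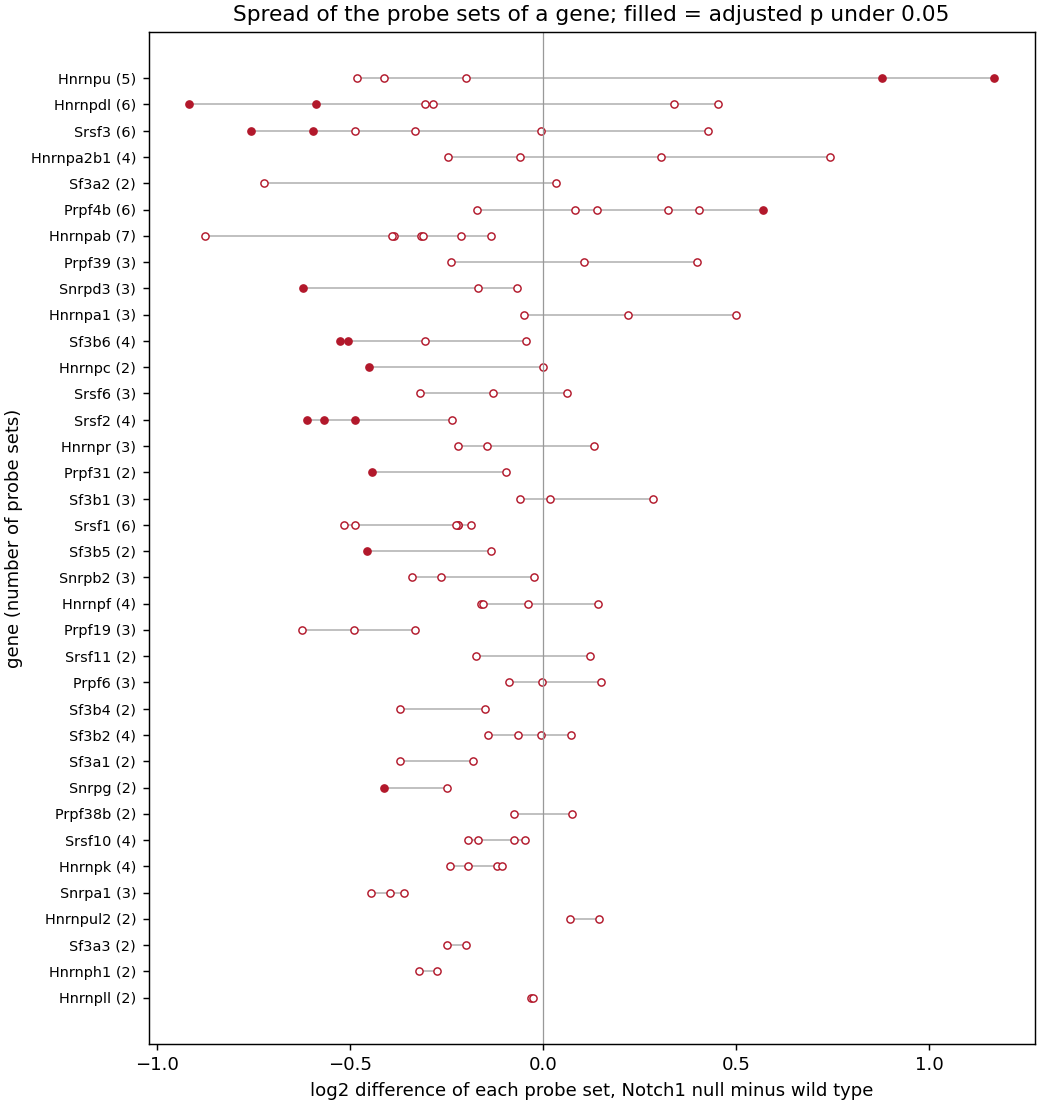
Log2 difference of each probe set in Notch1 null against wild type (x axis) for the 36 genes with more than 1 probe set (y axis, number of sets in brackets), ordered by range; filled points passed limma at an adjusted p under 0.05. Hnrnpu spans 1.65, with 2 sets far right of zero and 3 left of it, whereas the 3 sets of Snrpa1 lie within 0.09.

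Hnrnpu, which encodes a nuclear scaffold protein that binds RNA and chromatin, had the widest range of all members, 1.65. Set 1434391_at had 1.49 and 1.28 in Notch1 null, 1.20 in Notch1 het, 0.767 and 0.734 in wild type, 1.00 and 0.947 in Dll3 het and 0.868 and 1.02 in Dll3 null. The Notch1 arrays were the highest and wild type the lowest (0.88 ± 0.12, adjusted p = 0.00436), and this was the only one of 46 probe set calls over all comparisons that none of its alternatives ended (adjusted p up to 0.0469). Set 1434390_at followed it, with 1.55 and 1.93 in Notch1 null, 1.27 in Notch1 het and 0.997 and 0.595 in wild type (1.17 ± 0.25, adjusted p = 0.0206).

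The other Hnrnpu sets ran the opposite way. Set 1450849_at had 0.614 and 0.660 in Notch1 null, 0.967 in Notch1 het, 0.791 and 1.00 in wild type, 1.24 and 1.14 in Dll3 het and 1.04 and 1.26 in Dll3 null. The Notch1 null arrays were the lowest of the 9, and the difference was -0.48 ± 0.14 (adjusted p = 0.0675). Set 1423050_s_at had -0.41 ± 0.11 and 1423051_at -0.20 ± 0.11. Over the 9 arrays 1434390_at and 1434391_at correlated at 0.86 and 1423051_at and 1450849_at at 0.91, while 1423050_s_at and 1434391_at correlated at -0.73. The gene mean of Hnrnpu, 0.19 ± 0.11, averages these opposed sets and did not pass.

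Each set was tested against the mean of the other sets of its gene. In Notch1 null against wild type Hnrnpu and Srsf3 had a set apart, 2 of 36 genes (5.56%, against 2.6% of all). Members had 107 such tests over 36 genes, against 9886 over all 4956, so these shares rest on unlike numbers of tests per gene. For Hnrnpu 4 of 5 sets passed, but each mean of the rest holds the other sets, so these are not 4 separate departures. Set 1434391_at stood 0.86 ± 0.14 above the rest (adjusted p = 0.0165) and 1434390_at 1.22 ± 0.25 above. Set 1450849_at stood at -0.84 ± 0.17 and 1423050_s_at at -0.75 ± 0.15, and neither of these passed on its own. The count was 0 without Notch1_null replicate 1, Notch1_null replicate 2 or wild_type replicate 2, 1 without wild_type replicate 1, 4 without either Dll3 null array and 0 after quantile normalization. Between Notch1 null and Dll3 null Hnrnpu was the 1 gene apart (2.78%, against 1.23% of all), with 3 sets passing.

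Srsf3, the smallest SR protein and an adaptor in mRNA export, had 6 sets. Set 1416150_a_at fell, with 0.774 and 0.654 in Notch1 null against 1.05 and 1.10 in wild type (-0.60 ± 0.11, adjusted p = 0.0147), and 1416151_at fell by 0.76 ± 0.15, with 0.760 and 0.981 against 1.56 and 1.37. Both calls ended without wild_type replicate 1 or wild_type replicate 2, the first also without Notch1_null replicate 2 and the second without Notch1_null replicate 1. Set 1438215_at went the other way, with 0.935 and 1.11 in Notch1 null, 0.764 in Notch1 het, 0.802 and 0.717 in wild type, 1.28 and 1.00 in Dll3 het and 1.09 and 1.10 in Dll3 null. It was lowest in wild type and Notch1 het, and stood 0.86 ± 0.16 above the other sets in Notch1 null (adjusted p = 0.0325), though its own difference of 0.43 ± 0.14 did not pass. The gene mean was -0.29 ± 0.10 (adjusted p = 0.0932).

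**Figure D5:**
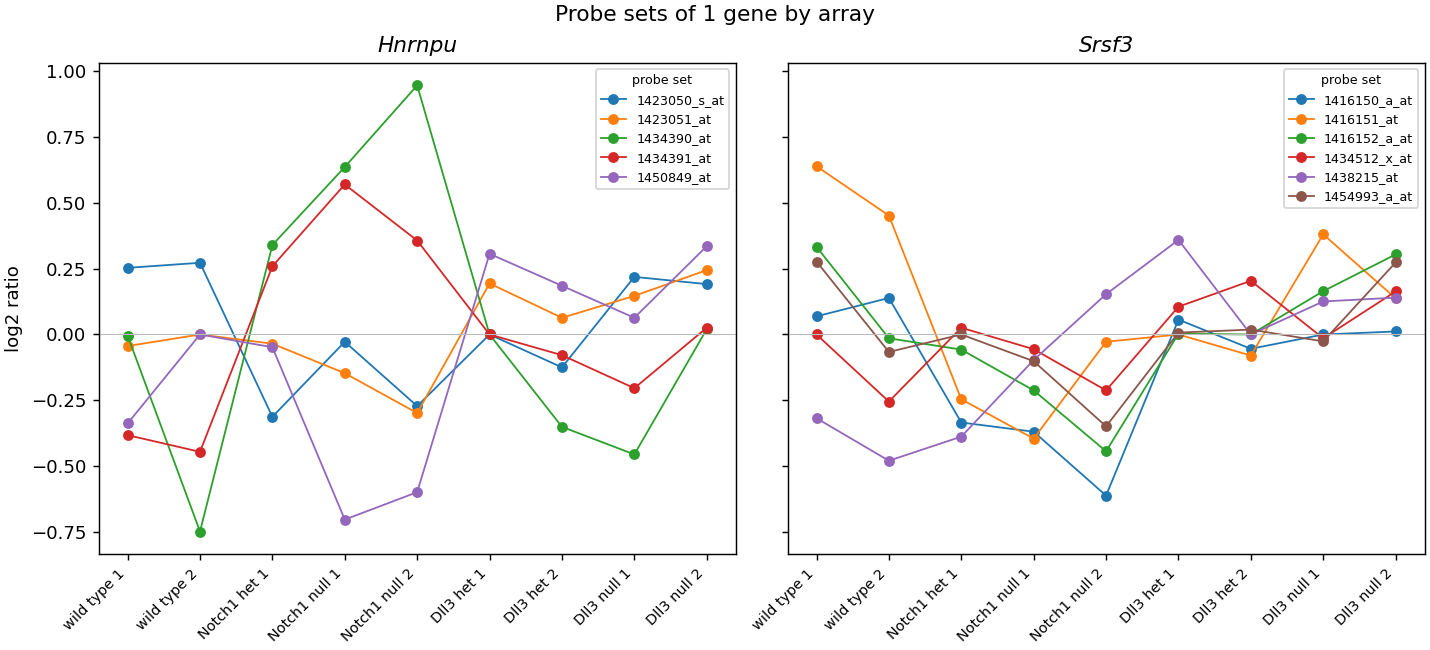
Log2 ratio (y axis) of each probe set of Hnrnpu (left) and Srsf3 (right) in the 9 arrays (x axis); lines only join the points of a set. In the Notch1 null arrays 2 Hnrnpu sets are high and 3 low, and among Srsf3 sets 1438215_at is low where 1416150_a_at and 1416151_at are high, in wild type.

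Other genes with wide ranges were Hnrnpdl (1.37), Hnrnpa2b1 (0.99) and Sf3a2 (0.76). In Hnrnpdl, an hnRNP related to the AU-rich binder Hnrnpd, 1428224_at (-0.92 ± 0.25) and 1449039_a_at (-0.59 ± 0.13) fell, while 1424252_at (0.45 ± 0.15) and 1428225_s_at (0.34 ± 0.13) had values above zero without passing, and 1424252_at and 1428224_at correlated at -0.73. In Hnrnpa2b1, a carrier of RNA in neurons, 1433830_at had 0.74 ± 0.23 and 1420365_a_at -0.25 ± 0.15, neither passing. In Sf3a2 the spread came from 1450576_a_at, with 2.56 in Notch1 het, 1.69 and 1.56 in wild type and 0.794 to 1.42 in the other arrays, while 1455546_s_at stayed between 0.829 and 1.08.

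Single sets passed in genes whose mean did not: 1422884_at of Snrpd3 (-0.62 ± 0.15), 1418693_at of Hnrnpc (-0.45 ± 0.12), 1448633_at of Prpf31, a tri-snRNP protein (-0.44 ± 0.10), 1451185_at of Sf3b5 (-0.46 ± 0.12), 1417054_a_at and 1417055_at of Sf3b6 (-0.51 ± 0.13 and -0.53 ± 0.14), and 1455696_a_at of Prpf4b (0.57 ± 0.13). Set 1460240_a_at of Hnrnpc, by contrast, had 0.00 ± 0.11.

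In other comparisons, sets apart were found for Hnrnpab and Hnrnpu in Notch1 het (5.56%, against 3.15% of all genes) and for Hnrnpr in Dll3 het (2.78%, against 3.05%). In Dll3 null 15 of 107 member tests had an unadjusted limma p under 0.05, beside 1203 of all 9886. After adjustment 0 member genes had a set apart there (0.182% of all). That last count was 1 without Dll3_null replicate 1. Between Dll3 null and Dll3 het (0% of all) and between Notch1 null and Notch1 het (0.282%) it was 0. Unadjusted, 4 and 25 of 107 member tests had a p under 0.05, beside 640 and 1321 of 9886.

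Probe sets whose name ends in x_at hold some probes that may also bind other sequences. In Notch1 null against wild type 0 of 18 x_at member sets passed limma, beside 9.05% of all 1282 such sets. Of the 120 other member sets 20 passed (16.7%, beside 9.62% of all 19098 other sets). Between Notch1 null and Dll3 null the x_at set 1417353_x_at of Snrpa1 passed, a call that ended in 11 of 16 alternatives. In Notch1 het the x_at sets of members had a median of -0.14 in log2 ratio against 0.00 for the other sets. There 12 of 18 lay below the other sets of their gene, against 13 in Dll3_het replicate 1 and 7 to 11 elsewhere. Over the whole platform x_at sets were also lower in the Notch1 het array (-0.09 against -0.01).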

How the data were processed

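Members and gene lists were chosen with earlier results of these data known. Biotin-labelled RNA of whole embryos was hybridised to 9 arrays in 5 groups, and the number of arrays limits the precision. The deposited values are linear ratios; RMA (background correction, normalization and probe summary) is named, without a version, in the submitters' processing notes. Of 22690 probe sets 19847 had a median of exactly 1 over the arrays and 0 a median above 1, so each was read as divided by its median or, when dim, by a floor (3 member sets); no source used here states this step, which leaves differences between arrays intact.

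With limma 3.58.1 under R 4.3.3, a linear model with a mean for each genotype and moderated variances was fitted to log2 values of the 9 arrays, for 22626 probe sets (64 control sets left out) and for 12393 gene means. P-values were adjusted by Benjamini-Hochberg over all features within each of 7 comparisons, and over all genes in the test of heterozygote-to-null steps. An adjusted p under 0.05 counts as changed, and errors are SEs of the fit. Disagreement was tested on each set minus the mean of the other sets of its gene (9886 tests). Notch1 het, with 1 array, is assumed to vary like the others. Code was tested on simulated data. Replicate numbers were checked for pairing: differences between replicates 1 and 2 correlated across pairs of groups at -0.12 to 0.18, with 1 of 6 above 0.1. Arrays were therefore fitted unpaired, though low correlations cannot exclude a litter or preparation shared by number.

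Genes named are those changed by gene mean or probe set, the 3 highest and 3 lowest in each null, those with sets apart, the 5 widest and 3 narrowest ranges, the lowest p per role or where no set passed, the 2 of lowest p in each related list, and Snrpb and Snrpn; other genes were named after their values were seen. Alternatives were other scalings, fits, summaries of probe sets and thresholds, a pseudocount of 0.1, and leaving out each array. Sequences came from RefSeq; probe and protein sequences were not used here.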

Additional observations from a re-analysis of the deposited data

Results flagged for a closer look

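The 14 probe sets that match the naming rule but carry several symbols were fitted with all probe sets but entered no member count. In Notch1 null against wild type 1 passed limma: 1452680_at, annotated to Gm5848 and Snrpd2, with a log2 difference of -0.54 (adjusted p = 0.0408). Its ratios were 0.829 and 0.688 in Notch1 null, 0.635 in Notch1 het, 1.01 and 1.19 in wild type and 0.984 to 1.13 in the Dll3 arrays. The same set also passed in Notch1 het against wild type, at -0.79 ± 0.17. Between Notch1 null and Dll3 null 1430019_a_at, annotated to Hnrnpa1 and other symbols, passed at -0.49 ± 0.10 (adjusted p = 0.0284). Which of the annotated genes gave each signal cannot be told apart.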

How the results depend on the processing

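No result changed direction where it was called. For Notch1 null against wild type, the 9 genes became 5 with median centring, 1 with quantile normalization, 14 with the probe set of largest SD, 15 at a threshold of 0.1 and 1 at 0.01; the 20 probe sets 5, 10 (only the groups compared), 38 and 1 (quantile, then thresholds 0.1 and 0.01); the 2 genes with sets apart 0 (quantile and 0.01) and 4 (array weights, only the groups compared and 0.1); and the 5 Snrp genes 2 (centring, only the groups compared) and 0 (quantile and 0.01). For Notch1 het, 0 genes became 1 (dim sets left out, or median of sets), 5 (largest SD) and 4 (0.1), and 5 probe sets 0 (quantile, only the groups compared and 0.01) and 13 (0.1). For Dll3 het, 0 probe sets became 2 at 0.1. For Notch1 null against Notch1 het, 2 genes became 0 (quantile, only the groups compared and 0.01) and 5 (0.1), and 2 probe sets 1 (centring), 0 (as before) and 12. For Notch1 null against Dll3 null, 7 genes became 3 (quantile), 2 (only the groups compared and 0.01) and 13 (0.1), 19 probe sets 5, 0, 3 and 33 in the same order, and the median -0.29 with the largest SD. With the replicate block, although the numbers are not known to pair the arrays, Snrp genes numbered 3 and Notch1 het probe sets 2. Notch1 null against Notch1 het then gave 0 genes and 0 probe sets, and Notch1 null against Dll3 null 12 probe sets. Other counts stayed within 1.5 times.

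Leaving out each array gave, for Notch1 null against wild type, 0 to 9 genes, 0 to 5 Snrp genes, 2 to 20 probe sets, 0 to 4 genes with sets apart and medians of -0.23 to -0.11; for Notch1 het 0 to 4 probe sets and medians of -0.10 to 0.042; for Dll3 het 0 to 1 probe sets; for Dll3 null 0 to 1 genes with sets apart and medians of -0.0013 to 0.13; for Notch1 null against Notch1 het 0 to 2 genes and 0 to 1 probe sets; and for Notch1 null against Dll3 null 1 to 7 genes and 1 to 19 probe sets. The causes were not tested. Of 18 gene calls 17 ended in at least 1 alternative. No signal above background can be judged from ratios.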
